A study of Mus musculus with 24 samples.

Results

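Liver RNA was compared between mice with Villin-Cre and mice without it, all homozygous for a floxed Abca1 gene and all given the oral LXR agonist GW3965. The comparison takes 3 Villin-Cre and 3 floxed liver libraries, 6 of the 24 libraries of the series, chosen by genotype, tissue and treatment alone. Both groups were C57BL/6 mice in which 75% of the small bowel had been resected, and both got GW3965 by mouth at 1 mg/kg/day on 2 days a week for the last 5 of the 10 weeks after surgery. The Villin-Cre group carried Abca1 fl/fl and Villin-Cre, and the floxed group carried Abca1 fl/fl alone. A further 6 liver libraries, from Villin-Cre and floxed mice with the same surgery given vehicle (the drug itself was given in 0.5% carboxymethyl cellulose), were used to ask where the genotype difference under GW3965 departed from that under vehicle. No library without resection was used. The Villin promoter drives Cre in intestinal epithelium, so liver lies outside the intended site of deletion, and the labels do not say whether a library holds 1 animal or a pool.

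ABCA1 moves cholesterol and phospholipid out of cells onto apolipoprotein A-I, the first step in making HDL, and liver and intestine are its main sites of HDL production. The nuclear receptors LXR-alpha and LXR-beta sense oxysterols and switch on ABCA1, the sterol exporters ABCG5 and ABCG8, and lipogenic genes such as Srebf1 and Scd1. HDL made in the intestine reaches the liver through the portal vein, where it can bind endotoxin, and bile acids return by the same route and set the rate of their own synthesis in hepatocytes.

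Under GW3965, most genes of bile acid, glucose and fatty acid metabolism tested were lower in Villin-Cre than in floxed livers. Most genes of the amino acid stress response, the matrix and the damage and tumour list were higher. All 16 bile acid synthesis genes tested fell, with Cyp8b1 at 8.35 ± 0.742 CPM in Villin-Cre and 573 ± 175 CPM in floxed livers, and Cyp7a1 at 13.5 ± 1.36 CPM in Villin-Cre and 287 ± 124 CPM in floxed livers (mean ± SD, n = 3 each). 20 of 24 genes of the amino acid stress response rose, as did 27 of 33 matrix genes and 21 of 25 damage and tumour markers. Over all genes tested 21.7% rose and 21.6% fell. Under vehicle the same genotype comparison, in separate libraries, called 1 bile acid synthesis gene higher and 14 lower. It called 17 amino acid stress genes higher and 5 lower, 29 and 3 matrix genes, and 19 and 2 damage and tumour markers. Of all genes 54.2% were called under vehicle in either direction. The lists, here and below, were chosen with earlier results of these data known, so their counts describe the members and are no independent test. Some genes stand in more than 1 list, such as Slc7a11 in the amino acid stress and NRF2 lists. The counts of different lists are therefore not separate evidence. The largest rises were those of Sprr1a, Slc7a11 and Mt2, whose values lay between 123 and 225 CPM in Villin-Cre livers and at or below 3.77 CPM in floxed livers.

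Values are CPM, the reads of a gene scaled to the assigned reads of its library, rescaled between libraries by the median ratio over genes, and log2 fold changes are Villin-Cre over floxed on the log2(CPM + 0.5) scale with their standard errors (±); the scale understates the change of low genes. CPM with ± are means with the SD over 3 libraries. Limma on the 6 libraries, with Benjamini-Hochberg adjustment over 17520 genes and a threshold of 0.05, called 3800 genes higher and 3781 lower in Villin-Cre livers (43.3% of the genes tested; 21.7% higher and 21.6% lower), 818 and 960 of them by at least 2-fold (1341 and 663 without rescaling, and 509 and 681 with a pseudocount of 2). The median log2 fold change over all genes was -0.011. Without rescaling that median moved up by 0.216, and 6302 genes were higher and 2215 lower, so that 74.0% of the calls were higher against 50.1% with rescaling. The libraries held 26.5 to 32.3 M assigned reads, so 3 reads, taken as the limit of detection, correspond to 0.0928 to 0.113 CPM. RNA encoded in mitochondria took 1.93 to 2.19% of the reads in Villin-Cre and 2.24 to 3.10% in floxed libraries.

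The libraries of a group lay very close together, which limits every test below. A pair of libraries of 1 group varied by 2.58 to 3.52 times what Poisson counting of reads gives in 10 pairs within the 4 liver groups and by 36.7 to 39.0 times in the 9 pairs between Villin-Cre GW3965 and floxed GW3965. Floxed GW3965 replicate 1 stood apart from both other libraries of its group (11.9 and 12.1 times). The predicted gene Gm26917 took 5.54% of its reads, against 3.60% and 3.71% in replicates 2 and 3. RNA encoded in mitochondria took 2.24% of its reads, against 3.10% in each of the others. Why that library stood apart was not tested. Even read counts were more common than odd ones in the 12 liver libraries (63.8 to 65.6% of the counts checked). Counting both mates of a pair would give such an excess and would raise the variation over Poisson counting and the number of assigned reads. Whether mates were counted separately was not tested. Since nothing ties libraries to separate animals, the p-values reflect how far libraries of a group differ, and that spread may be technical. Counts are therefore also given with close libraries averaged (written as averaged below), which leaves 1 Villin-Cre unit against 2 floxed units and assumes that the lone unit varies like the others. Limma then called 630 genes higher and 756 lower (7.91% of 17520; 3.6% and 4.32%), all of them among the 7581 calls of the 6 libraries, and 3976 genes had an unadjusted p under 0.05. A call lost in that setting does not show that the gene is alike in both groups. Without floxed GW3965 replicate 1, 4743 genes were higher and 4740 lower.

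Abca1, the floxed gene, was lower with Villin-Cre in liver and in ileum. Liver lies outside the intended site, so its values cannot by themselves check the labels. Abca1 had 359, 355 and 358 CPM in livers of Villin-Cre mice given GW3965, against 547, 520.0 and 513 CPM in livers of floxed mice given GW3965. The groups did not overlap, and the log2 fold change was -0.56 ± 0.06 (limma adjusted p = 7.8e-05, and adjusted p = 0.19 with close libraries averaged). Under vehicle it had 199.6, 200.3 and 198 CPM in Villin-Cre livers and 351, 366 and 359.7 CPM in floxed livers, so the lowest liver values were those of Villin-Cre mice given vehicle. In the ileum, the intended site, it had 59.4, 61.2 and 60.5 CPM in Villin-Cre mice given GW3965, against 401, 406 and 242 CPM in floxed mice given GW3965. The ileum groups lay closer under vehicle, with 27.2, 32.6 and 30.0 CPM in Villin-Cre and 53.4, 50.3 and 49.3 CPM in floxed mice. Counts over a whole gene include exons outside the deleted stretch and cells without Cre. The protein-coding gene Abca1, ENSMUSG00000015243 in the files, is on the minus strand of chromosome 4 from 53030787 to 53159895 in GRCm38.

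The livers carried the hepatocyte markers their label calls for, at lower levels with Villin-Cre. Of 18 hepatocyte markers tested, 12 fell and 1 rose (median log2 fold change -0.80), and 4 of them were called lower with close libraries averaged. Their summed level was 76030 to 77100 CPM in Villin-Cre and 88450 to 98590 CPM in floxed libraries. Hpd, which breaks down tyrosine, had 212, 215 and 207 CPM in Villin-Cre and 1252, 1618 and 1568 CPM in floxed libraries (log2 fold change -2.80 ± 0.10, adjusted p = 3.3e-07), and Asgr2, a subunit of the hepatocyte receptor for desialylated glycoproteins, changed by -1.25 ± 0.05. In bulk tissue, fewer cells of a type and less RNA per cell cannot be told apart. Of the 19 intestinal genes 7 were below 0.1 CPM in all 6 libraries, among them the intestinal factors Cdx1 and Cdx2, and 2 of these were at 0 throughout, one of them the intestinal alkaline phosphatase Alpi. The brush border lactase Lct had 0.381, 0.610 and 0.444 CPM in Villin-Cre and 0.215, 0.118 and 0.256 CPM in floxed libraries, and the brush border protease Mep1a 0.139, 0.174 and 0.137 CPM in Villin-Cre and 0 in all floxed libraries. The summed level of the 19 intestinal genes was 3081 to 3293 CPM in Villin-Cre and 479 to 1722 CPM in floxed libraries, most of it Apoa4 and Anpep, which liver also makes, and of 8 tested 2 rose and none fell. Of 10 fat cell genes 4 were tested: Cidec, Fabp4 (10.96 ± 0.969 CPM in Villin-Cre and 3.30 ± 0.260 CPM in floxed livers) and Cidea (1.47 ± 0.20, adjusted p = 0.065 averaged) rose, and Car3, which hepatocytes also make and which took most of the list's level in floxed libraries, fell. Their summed level was 216 to 222 CPM in Villin-Cre and 1558 to 1805 CPM in floxed libraries, and the droplet coat gene Plin1 of fat cells reached at most 0.220 CPM.

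**Figure D1:**
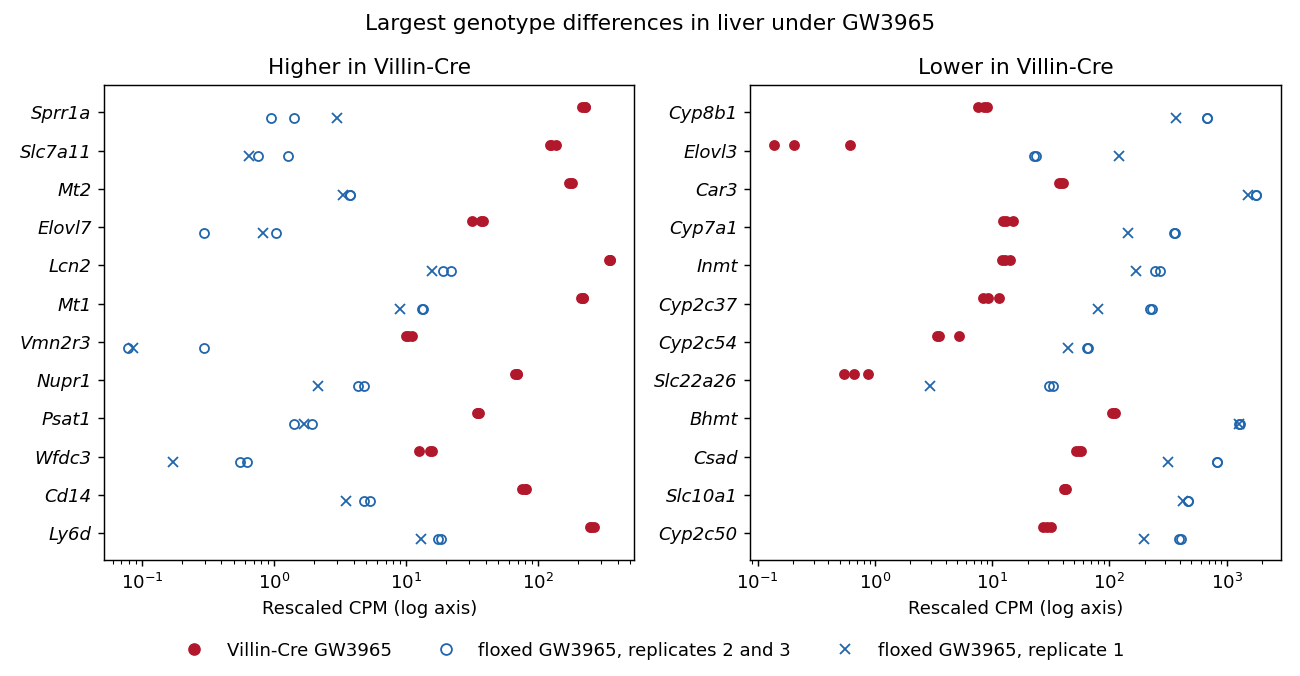
Rescaled CPM on a log axis in each liver library of mice given GW3965, for the 12 genes with the largest rise and the 12 with the largest fall in Villin-Cre against floxed livers. Filled points are the 3 Villin-Cre libraries, the cross is floxed replicate 1 and open points are the other floxed libraries. In none of the 24 genes do the groups overlap, as their choice required.

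The genes with the largest fall were enzymes and carriers made by hepatocytes. They were chosen by size of change with no overlap between the groups, so the separation is part of the choice. Cyp8b1, the bile acid enzyme that sets the share of cholic acid, had 8.50, 7.55 and 9.01 CPM in Villin-Cre and 371, 674 and 674 CPM in floxed livers (log2 fold change -5.97 ± 0.21, adjusted p = 3.6e-07). Elovl3, an elongase of very long fatty acids, had 0.139, 0.610 and 0.205 CPM in Villin-Cre and 121, 23.8 and 22.8 CPM in floxed livers (-5.69 ± 0.58), with the highest value in the floxed library that stood apart, and its call was lost with voom (adjusted p = 0.067). Car3, an abundant carbonic anhydrase, had 38.7, 37.4 and 39.8 CPM in Villin-Cre and 1512, 1769 and 1793 CPM in floxed livers (-5.43 ± 0.08, adjusted p = 4.3e-09). For all of these, every floxed library was far above every Villin-Cre library. Next came Cyp7a1 (-4.25), the rate-limiting enzyme of bile acid synthesis, the methyltransferase Inmt (-4.04), the cytochromes P450 Cyp2c37 (-3.99), Cyp2c54 (-3.68) and Cyp2c50 (-3.40), and the organic anion carrier Slc22a26 (-3.68). Bhmt, which remakes methionine from homocysteine with betaine, was at 109 ± 3.28 CPM in Villin-Cre and 1273 ± 13.4 CPM in floxed livers (-3.54 ± 0.05). Csad, an enzyme of taurine synthesis, and Slc10a1, which takes bile acids up from blood, changed by -3.44 ± 0.33 and -3.43 ± 0.06. All 12 but Slc22a26 (adjusted p = 0.13, 0.099 with voom and 0.058 with no filter on low values) were called with close libraries averaged. Slc22a26 had 2.93, 32.8 and 30.4 CPM in the floxed libraries, lowest in replicate 1, and its log2 fold change was -4.76 without that library. Reads of the Cyp2c genes may be shared between near-identical copies, so their single values are uncertain.

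The genes with the largest rise were of several kinds, among them metallothioneins, a cystine importer, a lipocalin and an endotoxin co-receptor. Sprr1a, a cornified envelope protein of squamous epithelia that injured tissues also make, had 225, 225 and 217 CPM in Villin-Cre and 2.97, 1.42 and 0.952 CPM in floxed livers (log2 fold change 6.71 ± 0.27, adjusted p = 5.8e-07). Slc7a11, the cystine-importing chain of the cystine and glutamate exchanger, had 125, 123 and 137 CPM in Villin-Cre and 0.646, 0.750 and 1.28 CPM in floxed livers (6.56 ± 0.16, adjusted p = 1.0e-07). The metallothioneins Mt2 and Mt1, which bind zinc and copper, changed by 5.43 ± 0.08 and 4.15 ± 0.14. The groups were far apart for each of them, and the Villin-Cre libraries lay close to each other. Mt1 and Mt2 are close copies, so reads may be split between them. Elovl7, a fatty acid elongase, was at 35.8 ± 3.65 CPM in Villin-Cre and 0.713 ± 0.378 CPM in floxed livers, and Lcn2, a lipocalin that binds bacterial iron carriers, at 349 ± 5.28 CPM in Villin-Cre and 18.9 ± 3.12 CPM in floxed livers. The others were the vomeronasal receptor Vmn2r3 (4.09), the stress-induced chromatin protein Nupr1 (4.08), the serine synthesis enzyme Psat1 (4.03), the whey acidic protein family member Wfdc3 (4.01), the endotoxin co-receptor Cd14 (3.98) and the surface protein Ly6d (3.95). All 12 were called with close libraries averaged, with adjusted p from 3.8e-04 for Mt2 to 0.0033 for Wfdc3.

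Promoters of 6 genes that rose are shown because they hold short motifs bound by stress factors and their genes belong to the metal, damage and amino acid stress lists described below. Sequences are 250 bases before to 50 bases after the start of the gene, 5′ to 3′ on the gene's strand (RefSeq, GRCm38.p6). Capitals mark the metal response element core (TGCACNC or TGCGCNC) in Mt1 and Mt2, the AP-1 site (TGANTCA) in Sprr1a, and the amino acid response element (TGATGCAA or TGATGAAA) in Slc7a11, Nupr1 and Asns. Both strands were searched, so a match can be printed as its reverse complement.
Mt1 (chr8:94178839-94179138, plus strand): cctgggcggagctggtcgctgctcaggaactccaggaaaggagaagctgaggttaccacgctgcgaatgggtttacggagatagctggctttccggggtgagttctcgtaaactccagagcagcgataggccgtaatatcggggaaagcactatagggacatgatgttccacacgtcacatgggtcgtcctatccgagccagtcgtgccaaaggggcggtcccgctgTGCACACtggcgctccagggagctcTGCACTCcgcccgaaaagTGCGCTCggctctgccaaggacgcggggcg
Mt2 (chr8:94172368-94172667, plus strand): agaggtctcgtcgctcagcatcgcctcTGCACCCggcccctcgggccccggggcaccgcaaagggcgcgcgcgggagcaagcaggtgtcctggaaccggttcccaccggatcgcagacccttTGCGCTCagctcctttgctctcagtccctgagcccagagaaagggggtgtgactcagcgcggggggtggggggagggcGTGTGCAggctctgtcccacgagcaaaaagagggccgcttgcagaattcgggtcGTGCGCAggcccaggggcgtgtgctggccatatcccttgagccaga
Sprr1a (chr3:92485832-92486131, minus strand): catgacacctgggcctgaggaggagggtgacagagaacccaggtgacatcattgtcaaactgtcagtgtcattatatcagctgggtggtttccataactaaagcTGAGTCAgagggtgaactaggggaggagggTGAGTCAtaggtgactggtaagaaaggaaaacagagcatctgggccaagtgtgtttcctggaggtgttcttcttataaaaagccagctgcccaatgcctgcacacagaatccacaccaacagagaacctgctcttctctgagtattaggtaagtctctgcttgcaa
Slc7a11 (chr3:50443564-50443863, minus strand): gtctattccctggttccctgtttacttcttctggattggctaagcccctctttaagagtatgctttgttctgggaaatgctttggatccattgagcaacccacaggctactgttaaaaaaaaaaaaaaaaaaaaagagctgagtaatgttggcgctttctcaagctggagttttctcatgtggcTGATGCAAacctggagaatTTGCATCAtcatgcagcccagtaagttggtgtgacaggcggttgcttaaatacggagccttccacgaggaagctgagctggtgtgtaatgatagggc
Nupr1 (chr7:126625421-126625720, minus strand): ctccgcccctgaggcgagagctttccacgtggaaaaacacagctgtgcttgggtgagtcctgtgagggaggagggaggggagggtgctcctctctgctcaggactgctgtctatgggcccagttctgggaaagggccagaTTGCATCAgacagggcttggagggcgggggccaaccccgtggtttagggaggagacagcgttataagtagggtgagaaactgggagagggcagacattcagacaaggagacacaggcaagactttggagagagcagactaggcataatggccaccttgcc
Asns (chr6:7693160-7693459, minus strand): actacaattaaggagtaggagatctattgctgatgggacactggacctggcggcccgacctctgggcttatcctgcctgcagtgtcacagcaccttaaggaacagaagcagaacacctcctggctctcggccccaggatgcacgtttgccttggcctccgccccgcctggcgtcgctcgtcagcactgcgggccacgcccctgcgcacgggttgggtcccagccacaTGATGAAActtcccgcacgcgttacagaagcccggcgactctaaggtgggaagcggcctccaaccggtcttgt
Mt1 held 3 matches and Mt2 held 4, Sprr1a and Slc7a11 held 2 each, and Nupr1 and Asns 1 each. The amino acid element stood in 7 of the 27 promoters that the table holds for 23 genes of the amino acid stress list (25.9%), against 1.9% of all 32851 promoters of the same length. The metal element stood in 7 of 21 promoters of 15 genes of the metal list (33.3%), against 25.7% of all promoters, and the AP-1 site in 3 of 19 promoters of 17 damage markers (15.8%), against 7.81%. Members of the amino acid stress list were chosen as genes of that response, so its higher share is no finding about these livers. These are matches of letters, and no binding was measured.

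Bile acid synthesis genes fell as a whole. All 16 tested were lower and none higher (median log2 fold change -1.19, against -0.011 over all genes), with 11 called with close libraries averaged, and the groups overlapped for none. Groups did not overlap for 54.6% of all genes tested. The list spans both routes: Cyp7a1 and Cyp8b1 of the classic route, for which floxed replicate 1 was the lowest floxed library, Cyp27a1 at 219 ± 9.35 CPM in Villin-Cre and 589.8 ± 73.8 CPM in floxed livers (-1.42 ± 0.09), and Cyp7b1 of the alternative route (-2.36 ± 0.19). Akr1d1, which reduces the sterol ring, had 18.0, 19.1 and 18.5 CPM in Villin-Cre and 107, 184 and 182 CPM in floxed livers (-3.02 ± 0.19). Baat, which joins bile acids to taurine or glycine, changed by -1.78 ± 0.08. The feedback genes were lower too. Nr1h4, encoding the bile acid receptor FXR, was at 59.0 ± 1.08 CPM in Villin-Cre and 130.2 ± 4.80 CPM in floxed livers (-1.14 ± 0.06). Nr0b2, encoding the repressor SHP that FXR switches on, had 17.8, 18.1 and 19.2 CPM in Villin-Cre and 38.9, 43.6 and 47.0 CPM in floxed livers (-1.21 ± 0.09). Fgfr4 and Klb, which form the receptor for the gut hormone FGF15, changed by -0.47 ± 0.12 and -1.04 ± 0.14, both with adjusted p over 0.05 once close libraries were averaged (0.22 and 0.067). Fgfr4 was also not called without rescaling (adjusted p = 0.13) with no filter (0.084) or without Villin-Cre replicate 3 (0.052).

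Transporters that load bile acids into hepatocytes fell, and 1 exporter to blood rose. Of 16 transport genes tested, 10 fell and 1 rose (median -0.89), with 6 and 1 called with close libraries averaged. Slc10a1, the sodium-driven importer, had 42.1, 41.0 and 42.6 CPM in Villin-Cre and 426, 470.1 and 471 CPM in floxed livers, and Slco1b2, a sodium-independent importer, changed by -2.10 ± 0.06. Abcb11, the bile salt export pump of the canaliculus, was at 297 ± 4.47 CPM in Villin-Cre and 824 ± 16.5 CPM in floxed livers (-1.47 ± 0.05). Abcc4, a pump that sends bile acids back to blood, had 76.3, 81.6 and 81.5 CPM in Villin-Cre and 6.29, 16.86 and 17.9 CPM in floxed livers (2.63 ± 0.33, adjusted p = 2.7e-04); it was lowest in floxed replicate 1, and without that library the change was 2.17. Abcb4 and Abcc2, which export phospholipid and conjugates to bile, were not called (0.04 ± 0.09 and 0.05 ± 0.10), though both were called higher without rescaling (adjusted p = 0.017 and 0.038).

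Cholesterol synthesis genes stood lower in Villin-Cre livers, with a size that depended on 1 library. Of 28 genes, 22 fell and 1 rose (median -1.31), but only 2 were called lower with close libraries averaged. Hmgcs1, an early enzyme of the pathway, had 281, 294 and 305 CPM in Villin-Cre and 486, 2116 and 2096 CPM in floxed livers (-2.14 ± 0.49, adjusted p = 0.0076, and 0.19 averaged). Floxed replicate 1 lay near the Villin-Cre libraries and far from the other two floxed libraries for this gene. Its call was also lost with no filter on low values (adjusted p = 0.08), where 7 genes of the list were lower, and 14 were lower without Villin-Cre replicate 3. Without floxed replicate 1 the log2 fold change of Hmgcs1 was -2.84, and 26 genes of the list were lower (median -1.71). Scap, the escort of SREBP proteins, changed by -1.36 ± 0.16, and by -1.58 without that library.

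LXR targets did not move one way between the genotypes. Of 26 tested, 6 rose and 14 fell (median -0.38), with 3 and 5 called with close libraries averaged. Without floxed replicate 1, 7 rose and 19 fell (median -0.53). In the comparison under vehicle 5 were higher and 20 lower (median -0.83). The values that follow are under GW3965. Scd2 and Scd1, which desaturate stearoyl-CoA, rose: Scd2 had 216, 227 and 219 CPM in Villin-Cre and 90.0, 90.8 and 92.8 CPM in floxed livers (1.27 ± 0.05, adjusted p = 7.2e-07), and Scd1 19068, 19228 and 19776 CPM in Villin-Cre and 9485, 9319.6 and 9297 CPM in floxed livers (1.05 ± 0.13, adjusted p = 0.53 with close libraries averaged). Abcg1, an exporter of cholesterol to HDL, changed by 0.98 ± 0.07, and Lpl, the lipase of circulating triglyceride, by 1.10 ± 0.11. The lipogenic regulators went the other way. Mlxipl, encoding the glucose-responsive factor ChREBP, had 156, 149 and 154 CPM in Villin-Cre and 679, 538 and 548 CPM in floxed livers (-1.93 ± 0.09). Srebf1 changed by -0.65 ± 0.06, and Abcg5 and Abcg8, which send cholesterol into bile, by -0.90 ± 0.14 and -0.99 ± 0.10. With close libraries averaged Abcg8 and Mlxipl were called and Srebf1 (adjusted p = 0.14) and Abcg5 (0.099) were not. Nr1h3, encoding LXR-alpha, was at 95.3 ± 5.82 CPM in Villin-Cre and 119 ± 4.94 CPM in floxed livers (-0.32 ± 0.07, adjusted p = 0.33 averaged and 0.37 without rescaling).

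Fatty acid oxidation genes mostly fell, fatty acid synthesis genes fell more often than they rose, and a few lipid storage genes rose. Of 28 synthesis genes 15 fell and 3 rose (median -0.72; 4 and 1 averaged). Fasn, the fatty acid synthase, had 1142, 1101 and 1059.8 CPM in Villin-Cre and 1916, 4869.8 and 4946 CPM in floxed livers (-1.70 ± 0.32, -2.16 without floxed replicate 1, adjusted p = 0.18 with close libraries averaged). Of 30 genes of PPAR-alpha and fatty acid oxidation 23 fell and 3 rose (median -0.56; 4 and 2 averaged), led by Cyp4a10 (-2.01 ± 0.05), which hydroxylates fatty acids, the thiolase Acaa1a (-1.33 ± 0.05) and Acsl1 (-2.31 ± 0.11), which activates long-chain fatty acids. On the storage side, Cidec, which fuses lipid droplets, had 164, 171 and 169.8 CPM in Villin-Cre and 40.3, 10.2 and 8.49 CPM in floxed livers (3.42 ± 0.48, 4.11 without floxed replicate 1). The droplet coat gene Plin2 was at 1531 ± 22.8 CPM in Villin-Cre and 543 ± 64.1 CPM in floxed livers (1.50 ± 0.09). Of 17 droplet genes 6 rose and 4 fell (median 0.09; 3 and 2 averaged). Apolipoprotein and HDL genes fell in 17 of 25 cases and rose in 3 (median -0.83; 7 and 0 averaged), with the lipases Lipc (-1.34 ± 0.06) and Lipg (-1.47 ± 0.08) lower. Apoa4, an apolipoprotein that liver makes when it stores fat, had 2983, 2906 and 2778 CPM in Villin-Cre and 1414, 201 and 196 CPM in floxed livers (2.92 ± 0.65, 3.86 without floxed replicate 1, adjusted p = 0.17 with close libraries averaged and 0.076 with no filter).

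Genes of glucose production and of both ends of the liver lobule fell. Of 24 glucose genes 19 fell and 1 rose (median -0.90; 11 and 0 averaged). Fbp1, an enzyme of gluconeogenesis, was at 198 ± 3.70 CPM in Villin-Cre and 660.3 ± 18.2 CPM in floxed livers (-1.74 ± 0.05), and G6pc, which releases glucose, changed by -1.90 ± 0.13. Pericentral genes, expressed around the central vein under Wnt signals, fell in 12 of 19 cases and rose in 3 (median -1.39; 11 and 1 averaged). Glul, which makes glutamine and is confined to the cells at the central vein, had 248, 236 and 242 CPM in Villin-Cre and 1435, 1305 and 1277 CPM in floxed livers (-2.46 ± 0.07, adjusted p = 1.1e-07). Slc1a2, a glutamate importer of the same cells, had 38.7, 41.0 and 42.0 CPM in Villin-Cre and 292, 271 and 266 CPM in floxed livers (-2.75 ± 0.06). Cyp2e1, which oxidises ethanol and acetaminophen, was at 730.0 ± 6.26 CPM in Villin-Cre and 4809 ± 232 CPM in floxed livers (-2.72 ± 0.07), whereas the Wnt target Axin2 was not called (-0.32 ± 0.25). Periportal and urea cycle genes fell in 15 of 21 cases and rose in 3 (median -0.86; 9 and 0 averaged), with Otc of the urea cycle at 72.4 ± 4.79 CPM in Villin-Cre and 228 ± 17.4 CPM in floxed livers (-1.65 ± 0.08).

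Growth hormone targets were low in Villin-Cre livers and split the floxed group. Growth hormone acts on hepatocytes through its receptor and STAT5 and sets the sex-biased genes of rodent liver. Of 24 tested 17 fell and 1 rose (median -1.71; 10 and 0 averaged). Ghr, the receptor, had 128, 119 and 133 CPM in Villin-Cre and 443, 392 and 373 CPM in floxed livers (-1.66 ± 0.08), and Igfals, a carrier of the growth factor IGF-1, changed by -1.85 ± 0.13. The groups did not overlap for either gene. Mup20, a male-biased urinary protein, had 157, 156 and 163 CPM in Villin-Cre and 1312, 143 and 145 CPM in floxed livers, and Cyp2b9, a female-biased cytochrome P450, 18.1, 14.5 and 16.6 CPM in Villin-Cre and 0.948, 299 and 286 CPM in floxed livers. Floxed replicate 1 lay above all other libraries for Mup20 and below them for Cyp2b9, and neither gene was called (adjusted p = 0.35 and 0.51). Without that library Cyp2b9 was lower in Villin-Cre livers (-4.12), and Mup20 turned its sign and was called higher in them (0.14, adjusted p = 0.0056). Mup and Cyp2b copies are near-identical, so these values are uncertain gene by gene.

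**Figure D2:**
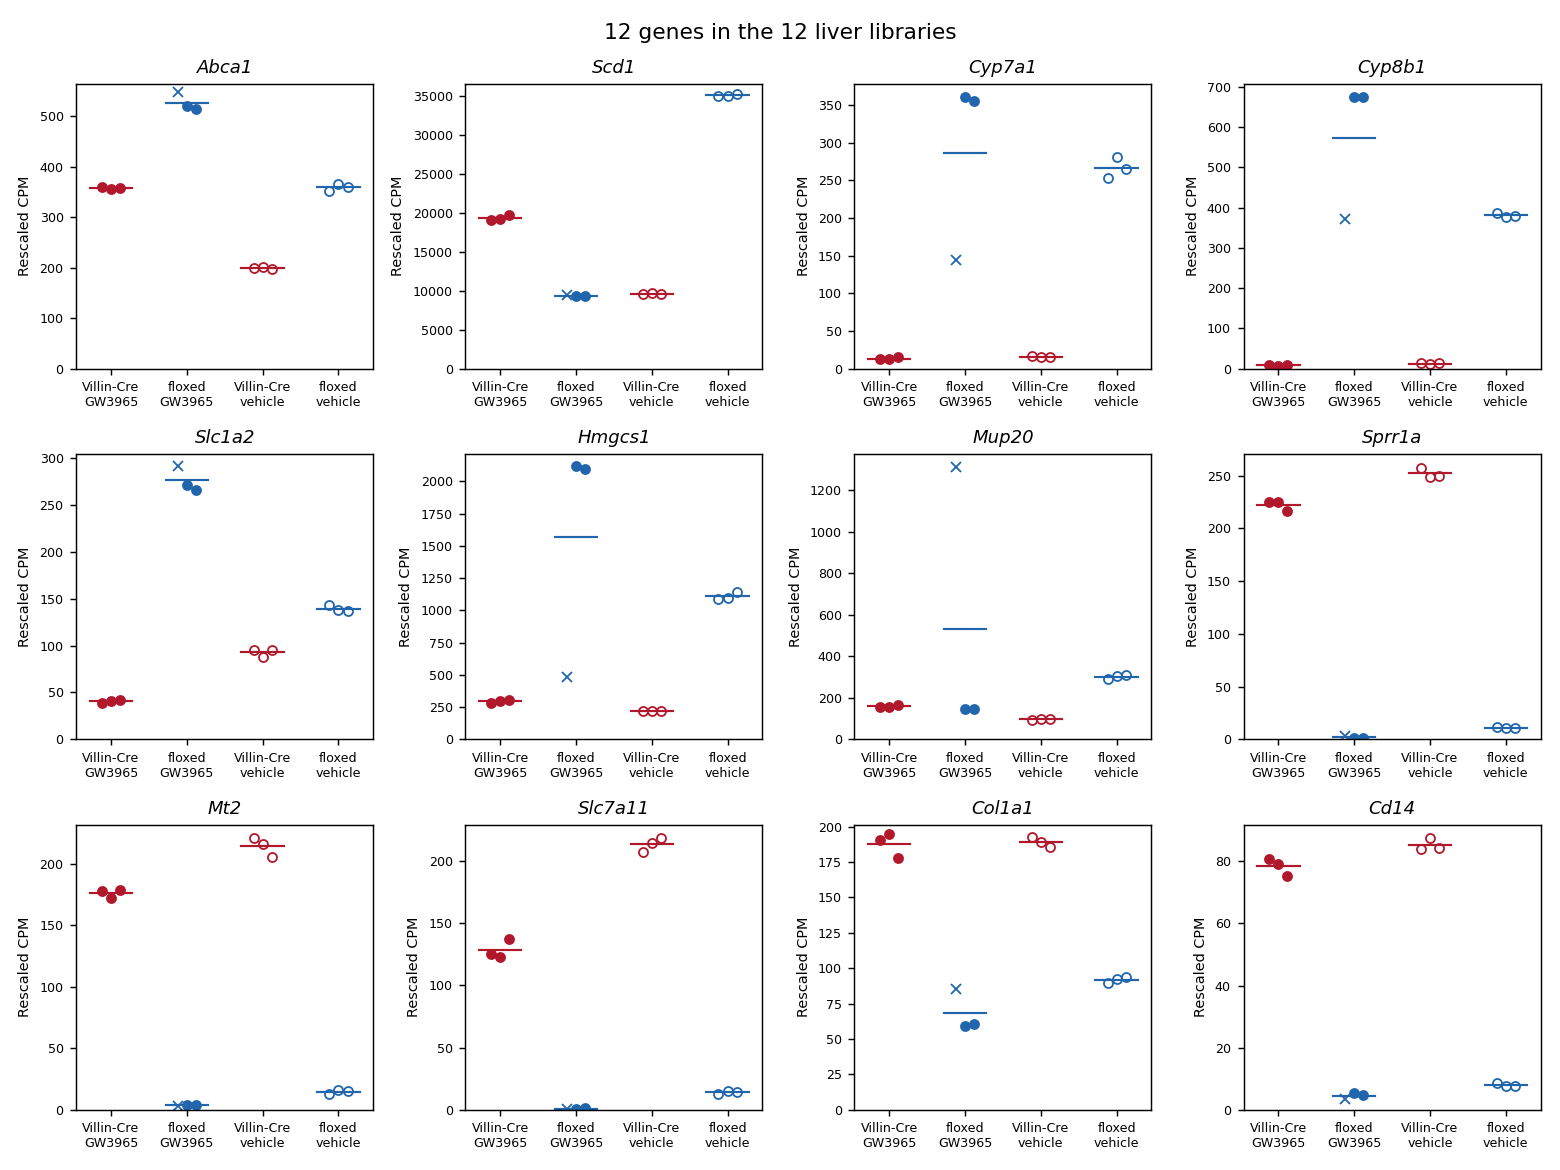
Rescaled CPM, on linear axes from 0, in all 12 liver libraries for 12 genes, with the Villin-Cre group to the left of the floxed group under GW3965 and again under vehicle. Points are libraries (filled under GW3965, open under vehicle), bars are group means, and crosses mark floxed GW3965 replicate 1. That library lies away from its group for genes including Mup20, Hmgcs1, Cyp7a1 and Cyp8b1.

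Drug-metabolising genes fell more often than they rose. Of 31 PXR, CAR and AhR response genes 19 fell and 5 rose (median -1.15; 9 and 3 averaged). Nr1i3, encoding the xenobiotic receptor CAR, had 45.5, 48.7 and 48.2 CPM in Villin-Cre and 129, 156 and 149 CPM in floxed livers (-1.60 ± 0.08), and its target Cyp2c29 changed by -2.51 ± 0.15. Cyp1a2, a target of the Ah receptor, was at 122 ± 3.98 CPM in Villin-Cre and 359 ± 53.0 CPM in floxed livers (-1.54 ± 0.10). The drug exporter Abcb1a rose (1.67 ± 0.14). Conjugating enzymes fell in 20 of 30 cases and rose in 3 (median -0.85; 8 and 0 averaged), with the glycosyltransferase gene Ugt3a1 at 6.69 ± 0.797 CPM in Villin-Cre and 41.7 ± 3.46 CPM in floxed livers (-2.56 ± 0.11).

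**Figure D3:**
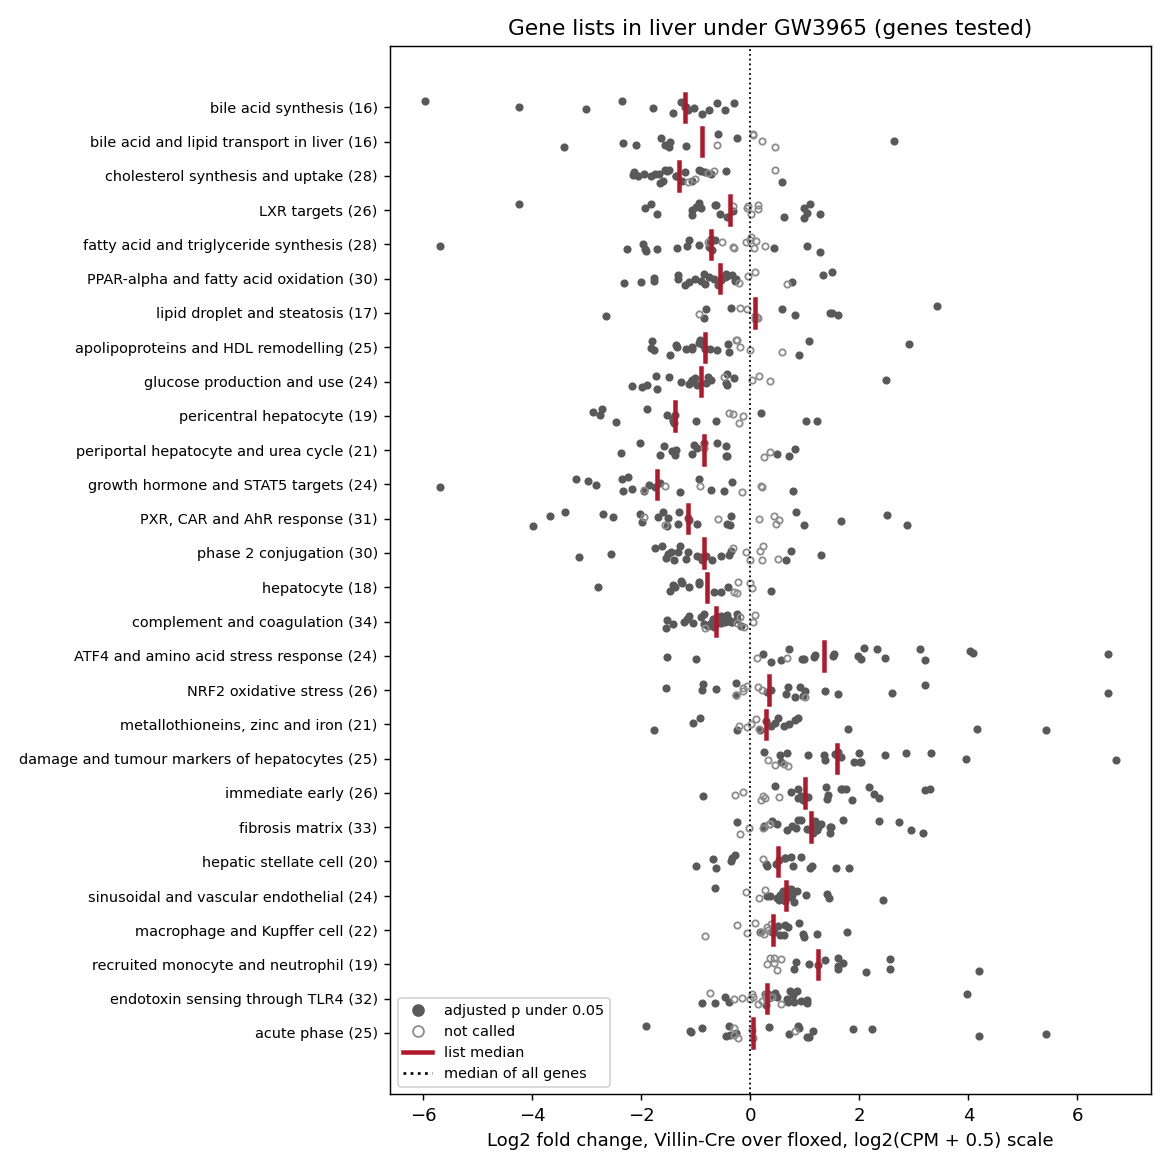
Log2 fold change, Villin-Cre over floxed livers under GW3965, of every tested member of 28 gene lists (grey points; filled where called with the 6 libraries), with the list median as a bar and the median of all genes as the dotted line. The medians of bile acid, cholesterol and glucose genes lie left of 0 and those of amino acid stress, matrix and monocyte genes right of it, with members on both sides in the LXR target and acute phase lists.

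The amino acid stress response, which ATF4 drives when amino acids run short or proteins misfold, rose. Of 24 genes 20 rose and 2 fell (median 1.34; 13 and 1 averaged). Slc7a11, whose promoter is printed above with a pair of amino acid elements, and its partner chain Slc3a2 (2.04 ± 0.08) import cystine. Psat1 had 35.6, 35.2 and 34.2 CPM in Villin-Cre and 1.68, 1.93 and 1.43 CPM in floxed livers, and Phgdh, the first enzyme of the same serine pathway, changed by 1.97 ± 0.20. In the folate cycle of mitochondria, Aldh1l2 had 13.9, 17.0 and 13.5 CPM in Villin-Cre and 0.733, 1.54 and 1.68 CPM in floxed livers (3.11 ± 0.23) and Mthfd2 changed by 2.33 ± 0.19, whereas Shmt2 fell to 146 ± 9.75 CPM in Villin-Cre livers, against 292 ± 18.1 CPM in floxed livers. The pseudokinase Trib3 was at 82.4 ± 4.10 CPM in Villin-Cre and 15.2 ± 5.18 CPM in floxed livers (2.46 ± 0.23), and the cell death factor Ddit3 (CHOP) changed by 1.51 ± 0.10. Asns, which makes asparagine, had 23.4, 21.9 and 25.9 CPM in Villin-Cre and 2.24, 7.03 and 8.45 CPM in floxed livers (2.09 ± 0.38, 1.56 without floxed replicate 1, adjusted p = 0.052 with close libraries averaged). The mRNA of Atf4 itself, a factor controlled mainly by translation, changed by 0.24 ± 0.06 (adjusted p = 0.48 averaged, and 0.05 to 0.058 without Villin-Cre replicate 1 or 3 or floxed replicate 3), and Fgf21, a hormone that ATF4 induces, was not called (0.68 ± 0.26, adjusted p = 0.068), but was called without floxed replicate 1 (1.04) and without rescaling (adjusted p = 0.016). Of 24 genes of the unfolded protein response and chaperones of the endoplasmic reticulum 5 rose and 4 fell (median 0.01; 0 and 0 averaged), against 8 and 11 without floxed replicate 1, and 11 and 1 without rescaling.

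Antioxidant and metal genes rose more often than they fell. Of 26 NRF2 list genes 13 rose and 6 fell (median 0.34; 6 and 2 averaged), and 10 fell without floxed replicate 1. Srxn1, which repairs oxidised peroxiredoxins, had 656, 637 and 641 CPM in Villin-Cre and 57.7, 76.2 and 76.2 CPM in floxed livers (3.20 ± 0.10, adjusted p = 2.5e-07), the carbonyl reductase Cbr3 changed by 2.60 ± 0.15 and the thioredoxin reductase Txnrd1 by 0.91 ± 0.06. Catalase (Cat), which breaks down hydrogen peroxide, fell to 979.8 ± 11.1 CPM in Villin-Cre livers, against 2868 ± 113 CPM in floxed livers (-1.55 ± 0.07). Of 21 genes of metal handling 12 rose and 4 fell (median 0.29; 4 and 2 averaged). Mt2 had 178, 173 and 179 CPM in Villin-Cre and 3.32, 3.75 and 3.77 CPM in floxed livers, and Mt1 218, 219 and 210.0 CPM in Villin-Cre and 8.92, 13.1 and 13.5 CPM in floxed livers. The zinc exporter Slc30a1 changed by 0.61 ± 0.12 (adjusted p = 0.24 averaged) and the zinc importer Slc39a14 was not called (0.02 ± 0.05, but called higher without rescaling, adjusted p = 0.0028); Hamp, encoding the iron hormone hepcidin, changed by 0.29 ± 0.06 (adjusted p = 0.53 with close libraries averaged).

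Damage and tumour markers and genes of fast transcriptional activation rose. Of 25 damage and tumour markers 21 rose and none fell (median 1.58; 15 averaged). Bulk tissue does not show which cells made them. The cell cycle inhibitor Cdkn1a, a target of p53, had 107, 104 and 105 CPM in Villin-Cre and 24.5, 24.7 and 26.8 CPM in floxed livers (2.04 ± 0.06, adjusted p = 2.1e-07). Anxa2 and S100a11, which meet at damaged membranes, changed by 3.32 ± 0.12 and 2.85 ± 0.09, and the p53 targets Eda2r and Zmat3 by 2.48 ± 0.19 and 1.56 ± 0.07. The keratins Krt8 and Krt18, which form the filaments of hepatocytes, were at 1317 ± 22.9 and 769 ± 19.5 CPM in Villin-Cre livers, against 329 ± 56.5 and 246 ± 39.3 CPM in floxed livers. The fetal liver genes Afp (0.68 ± 0.41) and H19 (0.61 ± 0.34) were not called, though H19 was called without floxed replicate 3 (adjusted p = 0.014). Of 26 immediate early genes 19 rose and 1 fell (median 1.01; 14 and 0 averaged): Myc had 68.8, 69.5 and 64.4 CPM in Villin-Cre and 14.0, 13.3 and 13.4 CPM in floxed livers (2.27 ± 0.07), Fosl1, an AP-1 subunit, changed by 3.30 ± 0.16 and Klf4 by 2.36 ± 0.13. Of 30 cell cycle genes 9 rose and 3 fell (median 0.24; 3 and 0 averaged; 6 fell without floxed replicate 1, median 0.01, and 4 rose with no filter on low values). One that rose was Ccnd1, the cyclin that opens the cycle, with 367, 356 and 359 CPM in Villin-Cre and 179, 169.8 and 161 CPM in floxed livers (1.08 ± 0.06).

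Matrix genes rose, together with markers of the cells that make or line matrix. Of 33 matrix genes 27 rose and 1 fell (median 1.11; 18 and 0 averaged). Col1a1, a chain of fibrillar collagen, had 191, 195 and 178 CPM in Villin-Cre and 85.3, 59.4 and 60.8 CPM in floxed livers (1.47 ± 0.13), and Col4a1, a basement membrane collagen, changed by 1.29 ± 0.06. Timp1, an inhibitor of matrix proteases, had 6.00, 6.27 and 6.69 CPM in Villin-Cre and 0.776, 0.0790 and 0.439 CPM in floxed livers (2.94 ± 0.28). The adhesive protein Thbs1 and the macrophage elastase Mmp12 changed by 2.72 ± 0.10 and 3.17 ± 0.21. Fibronectin (Fn1), mostly made by hepatocytes, was the gene that fell (-0.25 ± 0.08, adjusted p = 0.037), and its call was lost with any 1 library but floxed replicate 1 left out (0.1 to 0.14), with no filter (0.1) and without rescaling (0.99). Of 20 stellate cell markers 13 rose and 6 fell (summed level 1033 to 1054 CPM in Villin-Cre and 887 to 986 CPM in floxed libraries; 4 and 0 averaged), and 3 fell without rescaling or without Villin-Cre replicate 2 or 3. Acta2, the actin of activated stellate cells, had 12.4, 12.1 and 12.0 CPM in Villin-Cre and 2.11, 3.47 and 4.06 CPM in floxed livers (1.81 ± 0.20), and Tagln, which marks the same state, changed by 1.57 ± 0.10. Endothelial markers rose in 20 of 24 cases and fell in 1, at a summed 1579 to 1628 CPM in Villin-Cre and 982 to 1326 CPM in floxed libraries, and 1 was called with close libraries averaged. That gene was Lyve1, a hyaluronan receptor, with 28.6, 30.3 and 31.1 CPM in Villin-Cre and 7.11, 5.61 and 3.40 CPM in floxed livers (2.43 ± 0.21). Of 17 bile duct cell markers 7 rose and 1 fell (2 and 0 averaged; 12 rose without floxed replicate 1), at a summed 352 to 366 CPM in Villin-Cre and 252 to 466 CPM in floxed libraries. The claudin Cldn4, which seals epithelia, had 12.8, 10.7 and 10.2 CPM in Villin-Cre and 0.0862, 1.11 and 0.732 CPM in floxed livers (3.47 ± 0.34), and Pkhd1, of the primary cilium, fell (-0.66 ± 0.06). How far these cell type markers account for the matrix genes was not tested.

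Many markers of myeloid cells rose, and no tested lymphocyte marker was called higher. Of 19 monocyte and neutrophil markers 13 rose and none fell (median 1.24; 9 averaged), and their summed level was 737 to 757 CPM in Villin-Cre and 143 to 155 CPM in floxed libraries. That sum includes Lcn2, which hepatocytes also make. Gpnmb, a glycoprotein of lipid-laden macrophages, had 52.7, 50.6 and 46.1 CPM in Villin-Cre and 10.7, 11.4 and 10.98 CPM in floxed livers (2.12 ± 0.08), and Lgals3, a galectin of macrophages, changed by 2.57 ± 0.11. Itgam, the integrin of monocytes and neutrophils, and Ccr2, the receptor that brings monocytes out of marrow, changed by 1.70 ± 0.14 and 1.61 ± 0.19. The neutrophil genes S100a8, S100a9 and Cxcr2 stayed under 2 CPM in all 6 libraries and were not called, though S100a8 was called higher without rescaling (adjusted p = 0.038) and Cxcr2 without floxed replicate 3 (0.016). Of 22 macrophage and Kupffer cell markers 13 rose and none fell (median 0.41; 3 averaged), at a summed 2075 to 2114 CPM in Villin-Cre and 1302 to 1652 CPM in floxed libraries, with the lysosomal protein Cd68 at 47.0 ± 2.38 CPM in Villin-Cre and 20.03 ± 3.47 CPM in floxed livers (1.22 ± 0.12). With no filter on low values 8 of these macrophage and Kupffer cell markers rose. In the fit of all 12 liver libraries 1 fell, as it did with replicate number as a block or without floxed replicate 2 or 3. Without floxed replicate 1 the number that fell was 2. MHC class II genes rose in 7 of 10 cases (2 averaged), such as H2-Aa (1.21 ± 0.13). Of 21 T and NK cell markers none rose and 1 fell, the kinase Zap70 (-0.59 ± 0.15, not called averaged or without rescaling, adjusted p = 0.24 and 0.082). B and plasma cell markers fell in 8 of 18 cases (3 averaged), with the kappa constant gene Igkc at 16.6 ± 0.850 CPM in Villin-Cre and 41.3 ± 3.68 CPM in floxed livers (-1.28 ± 0.09). In the comparison under vehicle, 18 monocyte and neutrophil markers were higher and none lower. There, 19 macrophage and Kupffer cell markers were higher and 1 lower.

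Genes of endotoxin sensing rose in part, with the largest rise in a receptor. HDL from the intestine is known to bind endotoxin in portal blood, which is why this list was described. Of 32 genes 16 rose and 4 fell (median 0.31; 2 and 0 averaged), with 10 higher without Villin-Cre replicate 3 and 1 lower without rescaling. Cd14, which hands endotoxin to TLR4, had 80.8, 79.3 and 75.3 CPM in Villin-Cre and 3.49, 5.37 and 4.83 CPM in floxed livers (3.98 ± 0.14, adjusted p = 3.3e-07). Tlr4 itself had 6.97, 6.79 and 8.70 CPM in Villin-Cre and 3.49, 5.13 and 4.79 CPM in floxed livers (0.69 ± 0.17, adjusted p = 0.24 averaged, 0.051 with no filter and 0.055 without Villin-Cre replicate 3). Lbp, the serum protein that extracts endotoxin, had 77.1, 74.3 and 76.8 CPM in Villin-Cre and 84.0, 181 and 181 CPM in floxed livers (-0.88 ± 0.26, adjusted p = 0.024; -1.25 without floxed replicate 1). Its call was lost with any 1 of the other five libraries left out (adjusted p = 0.071 to 0.078), without rescaling (0.082), with no filter (0.15) and averaged (0.36). Of the cytokines that TLR4 induces, Tnf and Il1b were not called (0.14 ± 0.25 and 0.29 ± 0.17; Il1b was called without rescaling, adjusted p = 0.036) and Ccl2 changed by 0.80 ± 0.21 (adjusted p = 0.22 averaged, 0.052 with no filter, and 0.059 and 0.06 without Villin-Cre replicate 1 or 3). Acute phase genes were split, with 11 of 25 higher and 8 lower (median 0.05; 5 and 2 averaged). Without rescaling 3 were lower, and 5 with any 1 library other than floxed replicate 1 left out. The orosomucoid Orm2 changed by 1.89 ± 0.09 and the interleukin-1 antagonist Il1rn by 2.23 ± 0.10, while C-reactive protein (Crp) changed by -1.11 ± 0.06 and Saa4, an apolipoprotein of HDL, by -1.91 ± 0.07. Complement and coagulation genes, also secreted by hepatocytes, fell in 28 of 34 cases and rose in none (median -0.62; 6 averaged), against 17 lower and 2 higher without rescaling, with the lectin gene Mbl1 at 35.6 ± 1.81 CPM in Villin-Cre and 105 ± 14.1 CPM in floxed livers (-1.53 ± 0.10) and coagulation factor F7 changing by -1.42 ± 0.07.

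The same genotype comparison under vehicle shares no library with that under GW3965. It called 9494 genes (54.2% of 17520), and of the 3800 genes higher in Villin-Cre livers under GW3965 2736 were also higher under vehicle, which is 72.0% of the GW3965 list and 55.8% of the vehicle list. Of the 3781 genes lower under GW3965 2687 were also lower under vehicle (71.1% of the GW3965 list and 58.5% of the vehicle list), and 358 genes were called in opposite directions. Under vehicle each group is 1 unit once close libraries are averaged, so the vehicle libraries alone then leave no test. Sprr1a changed by 6.71 ± 0.27 under GW3965 and 4.45 ± 0.05 under vehicle, Cyp8b1 by -5.97 ± 0.21 under GW3965 and -4.82 ± 0.04 under vehicle, and Mt2 by 5.43 ± 0.08 under GW3965 and 3.82 ± 0.06 under vehicle. Most genes called under GW3965 were thus also called, in the same direction, in mice given vehicle. The size of the genotype effect could still differ between the treatments. The log2 difference, GW3965 minus vehicle, was 2.26 ± 0.29 for Sprr1a, -1.14 ± 0.23 for Cyp8b1 and 1.61 ± 0.11 for Mt2. Each was called in the limma fit described below.

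**Figure D4:**
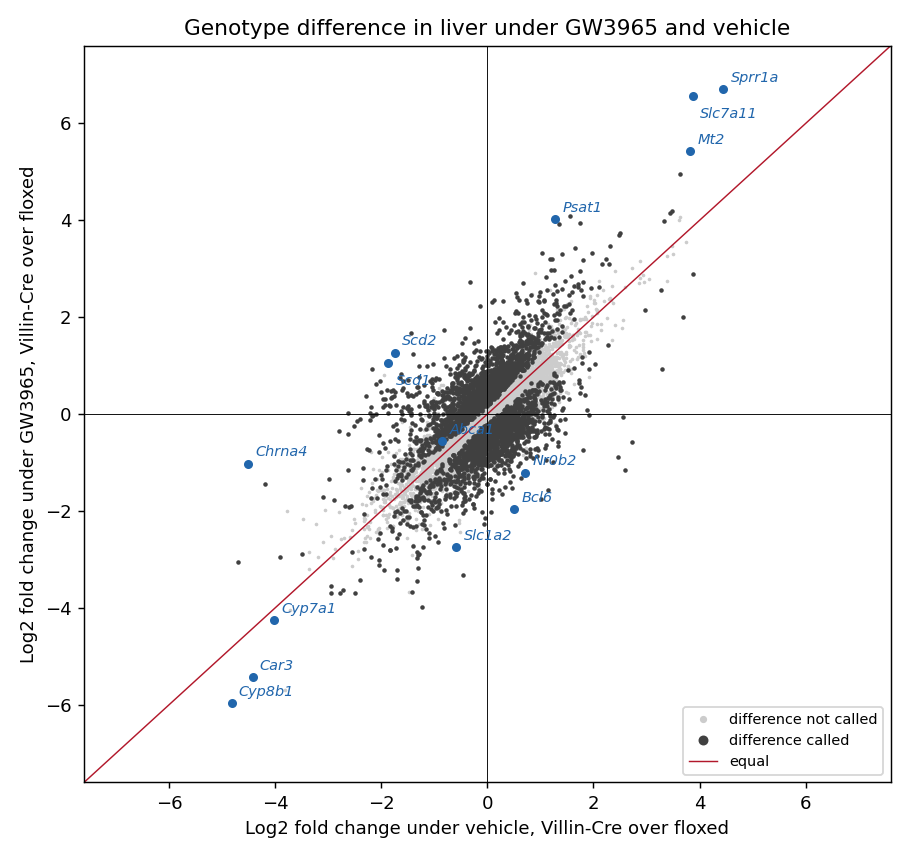
Log2 fold change, Villin-Cre over floxed livers, of each of 17520 genes under GW3965 (vertical) and under vehicle (horizontal), from separate libraries. Dark points are the 3504 genes whose difference between the treatments was called in the fit of all 12 libraries, and labels name genes given in the text; Sprr1a, Mt2 and Cyp8b1 lie on the same side of 0 under both treatments, while Scd1 and Scd2 lie above 0 under GW3965 and below 0 under vehicle.

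The difference between the genotype effects, GW3965 minus vehicle, was tested in a limma fit of all 12 liver libraries. It was above 0 for 1993 genes and below 0 for 1511 (20% of 17520; 11.4% and 8.62%). With close libraries averaged no gene was called by limma, 537 had an unadjusted p under 0.05, and voom on the 12 libraries called 2060 above and 1469 below; without floxed GW3965 replicate 1 the counts were 3002 and 2703. Scd2 had the clearest difference, with 216, 227 and 219 CPM in Villin-Cre and 90.0, 90.8 and 92.8 CPM in floxed livers under GW3965, and 159.9, 159.6 and 157 CPM in Villin-Cre and 533, 538 and 524 CPM in floxed livers under vehicle (difference 3.01 ± 0.05 log2, adjusted p = 2.0e-13). Scd1 did the same (2.91 ± 0.10, adjusted p = 4.3e-10): it was at 9629.5 ± 62.3 CPM in Villin-Cre and 35122 ± 175 CPM in floxed livers under vehicle. Both desaturase genes were thus higher with Villin-Cre under GW3965 and lower with it under vehicle. Of 26 LXR targets 12 had a difference above 0 and none below (9 below without floxed GW3965 replicate 1), and of 28 fatty acid synthesis genes 17 were above and 1 below (5 below without that library). Averaged, no gene of any list was called for this difference. Abca1 itself had a difference of 0.29 ± 0.06 (adjusted p = 0.0021).

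Pericentral and interferon genes mostly had differences below 0, and cell cycle and amino acid stress genes mostly above 0. Of 19 pericentral genes 10 had a difference below 0 and 1 above: Slc1a2 had 95.3, 88.1 and 95.1 CPM in Villin-Cre and 143, 138 and 137 CPM in floxed livers under vehicle, a genotype change of -0.59 ± 0.04 against -2.75 ± 0.06 under GW3965 (difference -2.17 ± 0.07, adjusted p = 4.3e-10). Glul and Cyp2e1 had differences of -1.37 ± 0.07 and -1.32 ± 0.07. The repressor gene Nr0b2 was higher in Villin-Cre livers under vehicle (0.72 ± 0.07) and lower under GW3965, a difference of -1.93 ± 0.11 (adjusted p = 6.4e-08). Of 33 interferon response genes 23 were below 0 and 3 above. Of 30 cell cycle genes 18 were above 0 and 2 below, and 19 were lower in Villin-Cre livers under vehicle. Ccnd1 had a difference of 1.41 ± 0.06. Among amino acid stress genes 17 of 24 were above 0, with 2.75 ± 0.13 for Psat1 and 2.69 ± 0.18 for Slc7a11.

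The 5 genes with the largest difference in each direction, chosen by size, included some for which floxed GW3965 replicate 1 lay apart. The receptor subunit gene Chrna4 had 20.7, 22.2 and 21.6 CPM in Villin-Cre and 10.4, 90.6 and 89.1 CPM in floxed livers under GW3965, against 4.30, 5.08 and 4.46 CPM in Villin-Cre and 120.4, 117 and 110.3 CPM in floxed livers under vehicle (difference 3.49 ± 0.78, adjusted p = 0.0061). Bcl6, a repressor in the growth hormone response of liver, had 15.4, 14.2 and 14.0 CPM in Villin-Cre and 25.5, 85.0 and 88.4 CPM in floxed livers under GW3965, against 22.1, 21.1 and 23.9 CPM in Villin-Cre and 15.6, 15.2 and 16.0 CPM in floxed livers under vehicle (difference -2.46 ± 0.45). For Chrna4, floxed replicate 1 lay below every other library of mice given GW3965, and for Bcl6 it lay nearest to the Villin-Cre libraries. The others above 0 were Scd2, Gldn (3.11 ± 0.55), the neurotrophin receptor gene Ntrk2 (3.09 ± 0.68) and the hydroxysteroid dehydrogenase Akr1c18 (3.05 ± 0.28), and below 0 the peptide carrier Slc15a2 (-3.75 ± 0.46), the chemokine Ccl27a (-2.86 ± 0.29), Cyp2c37 (-2.76 ± 0.39) and Gh (-2.54 ± 0.60), which stayed under 2 CPM in all 12 libraries. Under GW3965, floxed replicate 1 also lay apart from replicates 2 and 3 for Gldn (6.08, against 0.829 and 1.79 CPM) and Slc15a2 (3.28, against 10.6 and 11.9 CPM). It did so too for Cyp2c37 (80.4, against 222 and 229 CPM) and Gh (1.90, against 0.118 and 0 CPM). Without it the genotype change of Gh under GW3965 was -0.04, against -0.74 with it. Ntrk2 spread widely, at 6.72, 0.474 and 3.59 CPM. The 3 floxed libraries lay together for Akr1c18 and Ccl27a. Akr1c18 had 4.79, 4.30 and 3.07 CPM in Villin-Cre and 0.345, 0.158 and 0.0732 CPM in floxed livers under GW3965 (genotype change 2.72 ± 0.23, 2.87 without floxed replicate 1). Ccl27a had 0, 0.0581 and 0.239 CPM in Villin-Cre and 4.87, 6.04 and 5.34 CPM in floxed livers under GW3965 (-3.32 ± 0.20, -3.39 without floxed replicate 1), and the Villin-Cre libraries were near the limit of detection.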

How the data were processed

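RNA depleted of ribosomal RNA was sequenced as paired 150-base reads, per the labels' protocols. Per the submitters' processing notes, the tools were bcl2fastq, STAR 2.5.1a, Subread and featureCounts 1.4.6-p5 on GRCm38; the annotation release and strand setting were not given in the sources used here, so reads of overlapping or antisense genes cannot be told apart, nor reads of near-identical copies. The authors deposited log2 values per gene. Whole reads were recovered from their steps, exactly repeated rows were dropped, and values were set to CPM and rescaled by the median gene ratio (pseudocount 0.5; genes kept at 0.5 CPM in at least 3 of the 12 liver libraries). Limma 3.58.1 (R 4.3.3, trend) tested 17520 genes, two-sided, with Benjamini-Hochberg adjustment. Averaged libraries are those whose variance was under 4 times the Poisson variance. The limma fit of Villin-Cre against floxed libraries under GW3965 was tested on simulated counts, with 200 changed genes, independent libraries and no library apart from its group. The fit of the difference from vehicle and the alternatives were not tested in this way. Named genes are Abca1, the 12 largest changes each way without overlap, up to 5 members of each list with the smallest p and members needed for its role, and the 5 largest differences from vehicle each way; some genes are not reported here. Members and lists were chosen with earlier results of these data known. Alternatives were rescaling, pseudocount, filter, libraries, block, voom on recovered reads and the deposited values.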

Additional observations from a re-analysis of the deposited data

Results flagged for a closer look

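The genotype effect in liver under GW3965 differed from that under vehicle, by limma's test of the difference itself in the fit of 12 libraries, for the 19 genes listed here. They are a selection, and other genes named in the report, such as Sprr1a, Mt2 and Cyp8b1, also had a called difference. The log2 difference, GW3965 minus vehicle, was 3.49 ± 0.78 for Chrna4, 3.11 ± 0.55 for Gldn, 3.09 ± 0.68 for Ntrk2, 3.05 ± 0.28 for Akr1c18, 3.01 ± 0.05 for Scd2, 2.91 ± 0.10 for Scd1, 2.75 ± 0.13 for Psat1, 2.69 ± 0.18 for Slc7a11, 1.41 ± 0.06 for Ccnd1 and 0.29 ± 0.06 for Abca1. It was -3.75 ± 0.46 for Slc15a2, -2.86 ± 0.29 for Ccl27a, -2.76 ± 0.39 for Cyp2c37, -2.54 ± 0.60 for Gh, -2.46 ± 0.45 for Bcl6, -2.17 ± 0.07 for Slc1a2, -1.93 ± 0.11 for Nr0b2, -1.37 ± 0.07 for Glul and -1.32 ± 0.07 for Cyp2e1. None of the 19 was called with close libraries averaged. Villin-Cre and floxed GW3965 libraries overlapped for Chrna4, Ntrk2, Slc15a2 and Gh. Floxed GW3965 replicate 1 lay apart from the other libraries of its group for genes including Chrna4, Gldn, Slc15a2, Cyp2c37, Gh and Bcl6. With 3 libraries in each group, no library was tested as an outlier of its group.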

How the results depend on the processing

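Without rescaling 6302 genes were higher and 2215 lower, and 6225 and 2187 in the deposited log2 values. With close libraries averaged 1386 genes were called, 630 higher and 756 lower, and 0 for the difference from vehicle (0 above and 0 below). Abca1 was then at -0.57 (limma adjusted p = 0.19), and it was called under every other alternative. Leaving out 1 library at a time gave 5848 to 9483 genes called, 2915 to 4743 higher and 2933 to 4740 lower. For the difference from vehicle it gave 2792 to 5705 called, 1621 to 3002 above 0 and 1162 to 2703 below 0, each highest without floxed GW3965 replicate 1. Mup20, not called in the 6 libraries, was called at 0.14 without that library and ranged from -1.46 to 0.14 over these settings. A pseudocount of 2, no filter, the fit of 12 libraries and voom kept these counts within 1.5 times. Replicate numbers did not pair the libraries (correlations 0.011, -0.003 and -0.0015), and with replicate number as a block 7108 genes were called and, among the genes named, Fn1 alone was lost. Of 156 named genes beside Abca1, 25 lost their call when averaged, 11 with no filter (Fn1, Fgfr4, Lbp, Slc15a2, Bcl6, Hmgcs1, Slc22a26, Tlr4, Ccl2, Gldn and Apoa4, adjusted p = 0.051 to 0.2), 8 without Villin-Cre replicate 3 and 6 without rescaling, where 7 others gained one; the causes were not tested. At 26.5 to 32.3 M reads, values under about 0.1 CPM rest on 3 reads or fewer.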

Other observations

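Genes of protein synthesis and of mitochondrial respiration moved in opposite directions. Of 47 ribosomal protein genes 41 were higher and none lower in Villin-Cre livers under GW3965 (median log2 fold change 0.46), with Rps6 at 159.5, 150.2 and 155 CPM in Villin-Cre and 82.9, 78.3 and 82.1 CPM in floxed livers (0.93 ± 0.06, limma adjusted p = 4.6e-06). Of 37 nuclear genes of the respiratory chain 36 were lower and none higher (median -0.50), with Ndufb10 of complex I at 39.5, 36.8 and 37.4 CPM in Villin-Cre and 75.6, 74.8 and 71.1 CPM in floxed livers (-0.95 ± 0.06). Of 15 genes of the mitochondrial genome 13 were lower (median -0.79). With close libraries averaged 2 ribosomal, 1 respiratory and 0 mitochondrial genes were called, and without rescaling 22 respiratory and 9 mitochondrial genes were lower. Ribosomal pseudogenes can share reads with their parent genes.

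Clock, interferon, heat shock and red cell genes had calls in both directions. Of 23 clock genes 7 were higher and 8 lower (median -0.10, 0.15 without rescaling; 1 and 3 averaged), with the core activator Arntl at 6.48, 5.60 and 6.96 CPM in Villin-Cre and 24.0, 20.5 and 20.6 CPM in floxed livers (-1.70 ± 0.12). Of 33 type I interferon genes 6 were higher and 12 lower (median -0.15, 0.10 without rescaling; 0 and 1 averaged), against 10 higher and 5 lower without rescaling, with Rsad2 at 0.93 ± 0.10 and Mx2 at -1.13 ± 0.15. Of 17 heat shock genes 6 were higher and 4 lower, against 9 and 1 without rescaling and none averaged; leaving out Villin-Cre replicate 1 left 3 higher, and Villin-Cre replicate 2 left 1 lower. Of 7 red cell genes 4 were higher and 2 lower (median 0.62; 1 and 2 averaged), at a summed 148 to 157 CPM in Villin-Cre and 114 to 123 CPM in floxed libraries. The globins were the 4 higher genes. The beta globin Hbb-bs was at 39.4 ± 0.682 CPM in Villin-Cre and 14.8 ± 0.262 CPM in floxed livers (1.39 ± 0.07), and Alas2, the first enzyme of haem synthesis in red cells, at 15.7 ± 0.337 CPM in Villin-Cre and 41.3 ± 1.39 CPM in floxed livers (-1.36 ± 0.07).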
